A study of Mus musculus with 8 samples.

Results

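Genes of cell division were followed in the dorsal skin of C3H mice treated on the skin with plant triterpenoids or with minoxidil. The set held 48 genes, listed by their function in the cell cycle: 14 of DNA replication and S phase, 23 of mitosis and 11 regulators. Members were the probe sets of the Clariom S Mouse array whose single gene symbol in the array's annotation was one of these names. Of the 48, 44 were measured, each by 1 probe set (13 of replication and S phase, 22 of mitosis and 9 regulators), among 22206 probe sets in all. The replication helicase subunit gene Mcm7, the cyclin genes Ccnb1 and Ccnd1 and the mitotic transcription factor gene Foxm1 had no probe set with 1 symbol and were not analysed here.

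The series held 8 arrays in 4 groups of 2, taken on day 20 from male mice that were 7 weeks old. The first group received tieghemelin, a plant saponin, at 1%, and the second maslinic acid, a plant triterpenoid acid, at 1%. The third received minoxidil, a drug used to promote hair growth, at 1% per the sample descriptions, although the source name of minoxidil array 2 gives 2%. The control group received Milli-Q water, and both of its arrays are titled as controls of the triterpenoids, so minoxidil was set against the same water arrays. All mice were acclimatised for 7 days, assigned at random to groups of 8, depilated, and treated daily. The labels do not tie an array to a single mouse, so each p-value here reflects only how far these arrays scatter, and part of that scatter may be technical. Each array read whole skin, in which fewer cells of a type and less RNA per cell cannot be told apart.

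A dividing cell copies its DNA in S phase and separates the copies in mitosis. The MCM helicase is loaded on origins of replication by Cdc6 and Cdt1, and the DNA polymerases then draw on nucleotides made by ribonucleotide reductase and thymidylate synthase. Cyclins with their kinases drive each step, and the Cip/Kip inhibitors hold them back. In skin, division is concentrated in the basal epidermis and, while hair grows, in the matrix of the follicle, so these genes are used as a readout of proliferating follicles. Depilation is a standard way to start hair growth in resting follicles.

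The promoters show how the members fall into classes that the list of phases did not use. In RefSeq's promoter table for GRCm38.p6, which holds 250 bases before and 50 after each gene's start, 36 of the 48 members were found. The element known as CHR, searched as TTTGAA on both strands, lay in the windows of 13 of 18 mitosis genes (72.2%), 1 of 12 replication genes (8.33%) and 0 of 6 regulators, and in those of 20.2% of all 27025 genes of the table. The CCAAT box, searched as CCAAT on both strands, lay in 16 of 18 mitosis genes (88.9%), 8 of 12 replication genes (66.7%) and 2 of 6 regulators, against 41.1% of all genes. The E2F element, searched on both strands as TTTGGCGC, TTTCCCGC, TTTCGCGC or TTTGCCGC, lay in 6 of 12 replication genes (Mcm3, Mcm5, Mcm6, Mcm7, Cdt1 and Cdc6), in 1 of 18 mitosis genes (Cdk1) and in 1 of 6 regulators (Cdk2), against 2.6% of all genes. A match to these letters is a description and not a site of binding. The 140 bases before the start are shown for the mitotic genes Top2a and Mki67 and the replication genes Mcm2 and Cdc6, with the matches in capitals and all other bases in lower case, in the direction of transcription.
Top2a, chr11:99024190-99024329, minus strand: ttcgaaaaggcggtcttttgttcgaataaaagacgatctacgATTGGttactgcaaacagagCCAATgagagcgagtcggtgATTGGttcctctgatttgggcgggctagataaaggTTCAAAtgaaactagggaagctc
Mki67, chr7:135716380-135716519, minus strand: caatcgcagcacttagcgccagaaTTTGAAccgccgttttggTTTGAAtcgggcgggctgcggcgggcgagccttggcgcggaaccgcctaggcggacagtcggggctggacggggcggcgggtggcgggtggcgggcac
Mcm2, chr6:88898781-88898920, minus strand: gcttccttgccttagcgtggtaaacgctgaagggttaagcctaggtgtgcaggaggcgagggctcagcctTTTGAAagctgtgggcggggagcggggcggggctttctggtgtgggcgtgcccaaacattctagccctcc
Cdc6, chr11:98908011-98908150, plus strand: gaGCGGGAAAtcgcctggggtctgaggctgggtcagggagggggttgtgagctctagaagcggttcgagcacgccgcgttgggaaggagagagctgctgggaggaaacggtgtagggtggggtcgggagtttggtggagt
Within these bases, Top2a carried CCAAT boxes in both orientations upstream of a CHR near the start, and Mki67 carried a pair of CHR elements. Mki67 also had CCAAT boxes upstream of the bases shown, with first bases at -188, -166 and -141, and Mcm2 had one at -175. Mcm2 was the replication gene with a CHR, and Cdc6 had an E2F element. The window of Tyms, which differed most between treatments among the replication genes, held none of the searched letters.

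As a group, the members sat in the lower middle of each array, close to its background. Values are deposited log2 signals, and background was read from 23 antigenomic probe sets, designed to have no target in the mouse. Their median was 7.02 and 6.97 on the tieghemelin arrays, 6.96 and 7.08 with maslinic acid, 7.51 and 7.33 with minoxidil and 7.75 and 7.61 in control skin. Of the 44 members, 34 and 35 lay above that median with tieghemelin, 33 to 35 with maslinic acid, 30 on each minoxidil array and 22 to 24 in control skin. The same order held for all probe sets, with 79.2% to 80.3%, 77.7% to 80.3%, 66.2% to 71.4% and 56.9% to 62.4% above it, and the upper quartile of background, at 7.86 to 7.96, was passed by 22, 22 to 23, 17 to 25 and 19 to 20 members. The number of members above the background median was thus lowest in control skin, where the background was itself highest. The part of background in these counts was not tested.

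The mean of the 44 members differed little between arrays: 7.76 to 7.78 with tieghemelin, 7.80 to 7.82 with maslinic acid, 7.77 to 7.78 with minoxidil and 7.72 to 7.73 in control skin. The median percentile of the members among all probe sets was 43.6 to 46.9 with tieghemelin, 45.4 to 46.1 with maslinic acid, 38.5 to 48.9 with minoxidil and 39.3 to 43.2 in control skin. On the percentile scale the range of the minoxidil arrays covered those of all other groups. Both control arrays were below every triterpenoid array on that scale, the nearest at 43.2 against 43.6. In the mean, both were below every treated array. The cause of this order was not tested. The replication genes had median percentiles of 50.9 to 55.9 with tieghemelin, 51.9 to 60.8 with maslinic acid, 41.8 to 54.4 with minoxidil and 32.9 to 60.3 in control skin. The lowest of these came from control array 1 and the highest control value from control array 2. The mitosis genes ranked at 32.7 to 41.7, 40.0 to 41.4, 36.6 to 47.98 and 37.6 to 43.2 in the same groups, with overlap throughout.

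**Figure D1:**
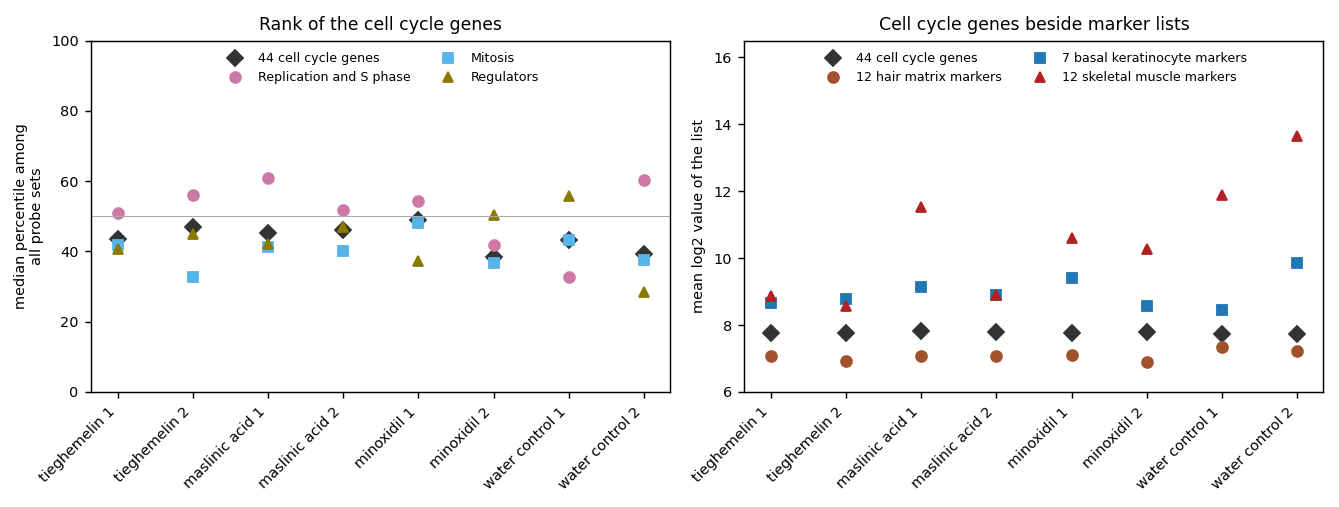
Left, the median percentile of the 44 members and of each phase among all probe sets of each array; right, the mean log2 signal per array of the members and of 3 lists of cell type markers. The members' mean stayed between 7.72 and 7.82 on all 8 arrays, while the mean of the skeletal muscle markers was 8.57 to 8.86 with tieghemelin and 11.88 to 13.65 in control skin.

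Control array 1 stood apart from the other 7, and each comparison is therefore given with all 8 arrays and without it. Its log2 values had an SD of 1.32 over all probe sets, against 1.62 to 1.69 on the others. Across the 44 members, its Pearson correlation with the other arrays was 0.537 to 0.670 (7 pairs), against 0.782 to 0.944 among the other 7 arrays (21 pairs). Genes are not independent replicates, so these are descriptions. The 2 arrays of a group differed by a median of 0.32 log2 over the members with tieghemelin, 0.31 with maslinic acid, 0.39 with minoxidil and 0.58 in control skin. Pcna had the largest such gap in 3 of the groups, at 1.47 with tieghemelin, 1.61 with minoxidil and 4.38 in control skin, and Bub1 in the maslinic acid group, at 1.41. In control skin 13 members differed by more than 1 log2 between the arrays.

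The labelled tissue was checked against 6 lists of markers. Of 12 measured hair matrix markers, 4 to 6 exceeded the background median on an array and 2 to 3 its upper quartile. Their mean was 6.93 to 7.08 with tieghemelin, 7.07 to 7.09 with maslinic acid, 6.90 to 7.11 with minoxidil and 7.22 to 7.33 in control skin. Both control arrays were therefore above all treated ones for this list. Their means lay below their own background medians of 7.75 and 7.61, the highest of the 8 arrays. Single markers differed between control arrays 1 and 2, as Wnt10b at 8.17 and 6.72 and Krt35 at 6.75 and 8.61. The part of background in this order was not tested. Shh, a signal of growing follicles, read 9.29 to 10.00 over the 8 arrays, whereas the matrix and differentiation factors Foxn1, Hoxc13 and Ovol1 were below the background median on all of them. The 7 basal keratinocyte markers averaged 8.66 to 8.76, 8.89 to 9.14, 8.58 to 9.39 and 8.45 to 9.86 in the 4 groups in that order. On control array 1, Krt14, a basal keratin that defines that layer, read 7.26, below background, as did Krt15, Itga6 and Itgb4. The other basal markers were above background on that array, with Krt5 at 10.09, Trp63 at 9.79 and Col17a1 at 9.11. The 12 skeletal muscle markers averaged 8.57 to 8.86 with tieghemelin, 8.91 to 11.54 with maslinic acid, 10.26 to 10.61 with minoxidil and 11.88 to 13.65 in control skin. All 12 were lower in each treatment than in control skin, with medians of -3.59 for tieghemelin, -2.57 for maslinic acid and -2.19 for minoxidil on the log2 scale, and of -4.75, -3.32 and -3.15 without control array 1. The 5 endothelial markers averaged 7.83 to 7.84 with tieghemelin, 7.82 to 7.96 with maslinic acid, 7.70 to 8.02 with minoxidil and 7.34 to 7.55 in control skin, where both arrays were below all treated ones. The 6 fibroblast markers averaged 8.41 to 8.97, 8.54 to 9.31, 8.53 to 8.68 and 8.26 to 10.07 in the same order, and the 9 lymphocyte and myeloid markers 7.70 to 7.84, 7.58 to 7.77, 7.57 to 7.88 and 7.70 to 7.95. The control range covered or overlapped that of a treated group for the basal keratinocyte, fibroblast and lymphocyte and myeloid lists. The part of muscle or of other cell types in any difference of the members from control was not tested.

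Among the members' own levels, Tyms had the highest mean percentile over the 8 arrays (85.1), followed by Ccne1 (82.3), Cenpa (80.4) and Cdt1 (78.4). Percentiles of different probe sets depend on the probes as well as on the transcripts, so this order is of signal and not of transcript number. Gins2, a subunit of the replicative helicase, and the mitotic genes Cdk1, Cdc25c, Cenpf and Kif20a exceeded the background median on no array, and neither did the regulators E2f1 and Cdkn1b. Cdk1 is the kinase that drives entry into mitosis, so a core gene of division was not measured above background here. Its values were 5.92 and 5.65 with tieghemelin, 6.04 and 5.62 with maslinic acid, 6.22 and 5.60 with minoxidil and 6.38 and 6.14 in control skin.

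**Figure D2:**
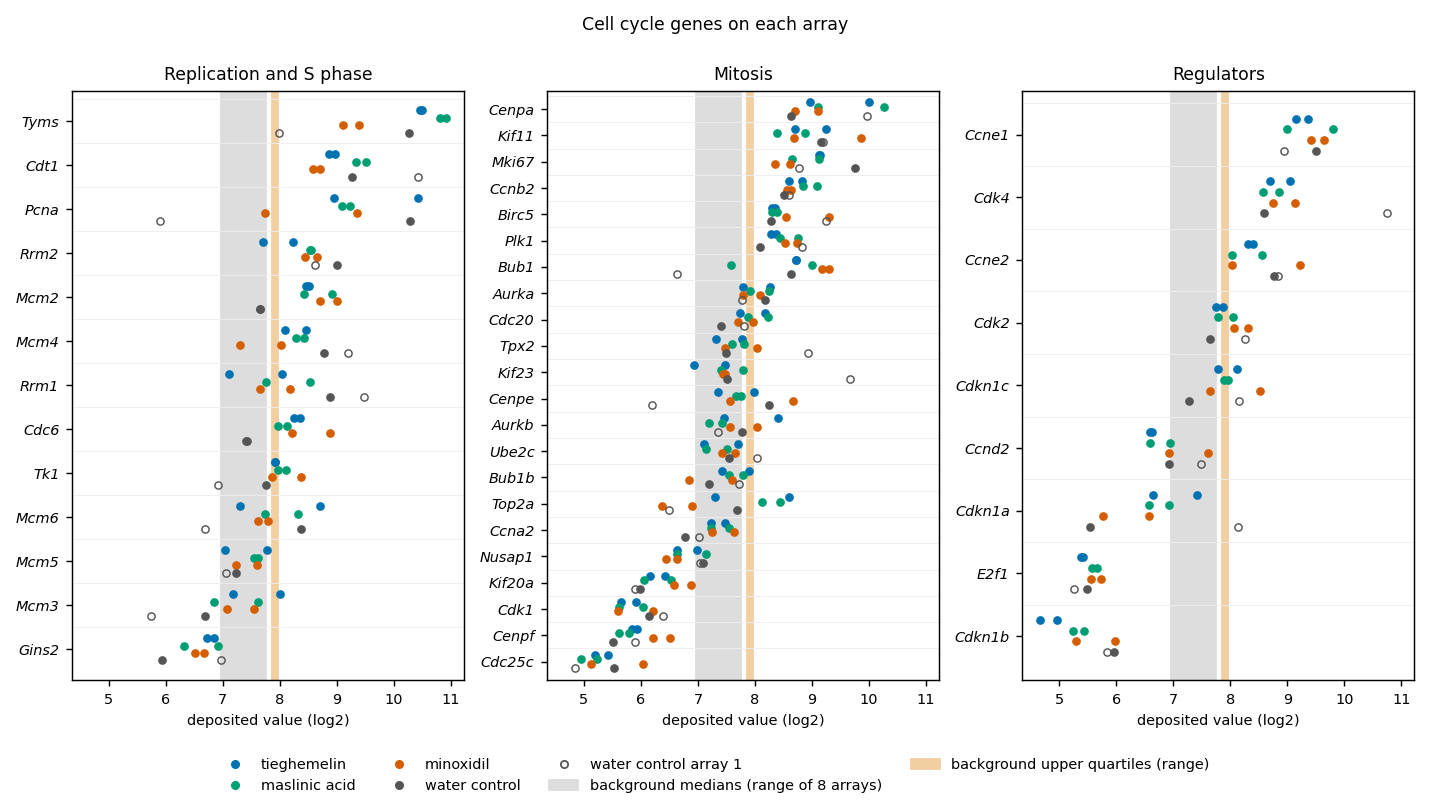
Log2 signal of each measured member on the 8 arrays, in panels for replication and S phase, mitosis and regulators, each with its own vertical axis; the grey and orange bands are the ranges over arrays of the background median and upper quartile. Tyms, Ccne1, Cenpa and Cdt1 lie above both bands on most arrays, 7 members lie below the background median on every array, and the spread of the control pair is widest for Pcna.

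Among the replication genes, Mcm2 and Cdc6 were higher with each treatment than in control skin on every array. Mcm2, a helicase subunit, read 8.52 and 8.46 with tieghemelin, 8.42 and 8.91 with maslinic acid, 8.70 and 9.00 with minoxidil and 7.65 and 7.66 in control skin. The control arrays were nearly equal and lowest, and 1 of the 2 lay above the background median. Cdc6, which loads the helicase, read 8.35 and 8.24 with tieghemelin, 8.12 and 7.97 with maslinic acid, 8.21 and 8.87 with minoxidil and 7.43 and 7.40 in control skin, where it was below background on both arrays. Differences are in log2 from limma's moderated fit of all 8 arrays, with p-values adjusted by the Benjamini-Hochberg method over all probe sets. No fold is given where a group had 1 of its 2 arrays above background. The difference of Mcm2 from control was 1.20 with minoxidil (SE 0.36, adjusted p = 0.440), 1.01 with maslinic acid (adjusted p = 0.448) and 0.83 with tieghemelin (adjusted p = 0.424). Because Cdc6 was below background in control skin, it was at least 1.81-fold higher with minoxidil (fitted difference 1.13, SE 0.37) and at least 1.53-fold higher with tieghemelin (0.88). A bound is given where no array of a group was above background, and it sets the mean of the bright group against the background median of the dim arrays, or against the dim signal where that is higher. The differences from control array 2 alone were 1.19, 1.01 and 0.83 for Mcm2 and 1.14 and 0.89 for Cdc6, close to the values with both, although the call of Mcm2 with tieghemelin ended there (unadjusted p = 0.0501).

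Mcm4 and Rrm1 lay on the other side of control skin. Mcm4, another subunit of the same helicase as Mcm2, read 8.08 and 8.46 with tieghemelin, 8.42 and 8.28 with maslinic acid, 8.02 and 7.31 with minoxidil and 9.19 and 8.77 in control skin. All 6 treated arrays were below both control arrays, and minoxidil array 2 was the lowest and below background. Minoxidil minus control was -1.31 (SE 0.40, adjusted p = 0.440), and -1.10 without control array 1. Rrm1, the large subunit of ribonucleotide reductase, read 7.11 and 8.03 with tieghemelin, 8.53 and 7.75 with maslinic acid, 8.18 and 7.65 with minoxidil and 9.48 and 8.88 in control skin. Every treated array was below both controls here too. Rrm1 was 3.06-fold lower with tieghemelin (log2 -1.61, SE 0.49, adjusted p = 0.410; -1.32 without control array 1) and 2.41-fold lower with minoxidil (-1.27; -0.97 without control array 1). Subunits of a single complex therefore stood on opposite sides of control skin, Mcm2 above and Mcm4 below.

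Thymidylate synthase, Tyms, read higher with the triterpenoids than with minoxidil. It read 10.49 and 10.46 with tieghemelin, 10.81 and 10.92 with maslinic acid, 9.39 and 9.11 with minoxidil and 7.98 and 10.26 in control skin. All 4 triterpenoid arrays were above both minoxidil arrays and above both controls, while the controls differed by more than any pair of treated arrays. Full separation from minoxidil, in either direction, was found for 43.8% of all probe sets with tieghemelin and 43.6% with maslinic acid. Relative to minoxidil, Tyms was 3.06-fold higher with maslinic acid (log2 1.61, SE 0.66, unadjusted p = 0.0398, adjusted p = 1.000 in limma) and 2.33-fold higher with tieghemelin (1.22, SE 0.66, unadjusted p = 0.101). Since all groups share 1 estimate of spread, leaving out control array 1 changed neither difference but reduced the SE to 0.29, with adjusted p = 0.164 for maslinic acid (0.164 to 1.000 over the alternatives) and 0.211 for tieghemelin (0.211 to 1.000). Against control, the value rested on control array 1: maslinic acid minus control was 1.74 with all 8 arrays and 0.60 without it, and minoxidil minus control was 0.13 and -1.01.

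Pcna, Mcm3 and Cdt1 completed the replication genes with the widest range of group means. Pcna, the sliding clamp of the DNA polymerases, read 8.95 and 10.42 with tieghemelin, 9.08 and 9.22 with maslinic acid, 9.35 and 7.74 with minoxidil and 5.90 and 10.28 in control skin. The control arrays held the lowest and nearly the highest of the 8 values, and no comparison with control had arrays that did not overlap. Minoxidil minus control was 0.46 (SE 1.26) with all 8 arrays and -1.73 without control array 1. Mcm3, a helicase subunit, read 8.00 and 7.19 with tieghemelin, 6.85 and 7.62 with maslinic acid, 7.54 and 7.08 with minoxidil and 5.73 and 6.69 in control skin, where neither array was above background. Tieghemelin minus control was 1.38, and 0.90 without control array 1, with no fold because the bound left no difference. Cdt1, the loading factor that works with Cdc6, read 8.97 and 8.87 with tieghemelin, 9.51 and 9.34 with maslinic acid, 8.58 and 8.70 with minoxidil and 10.42 and 9.27 in control skin. The minoxidil arrays were the lowest of the 8, and minoxidil minus control was -1.20 (2.30-fold lower), and -0.63 without control array 1.

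The other replication genes ranged less. Mcm5, Mcm6, Rrm2, Tk1 and Gins2 had arrays between 5.94 and 9.01, and with all 8 arrays they stayed short of the study's thresholds in each comparison. Rrm2, the small subunit of ribonucleotide reductase, read 8.23 and 7.70 with tieghemelin and 8.61 and 9.01 in control skin, a difference of -0.84, and -1.04 without control array 1.

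**Figure D3:**
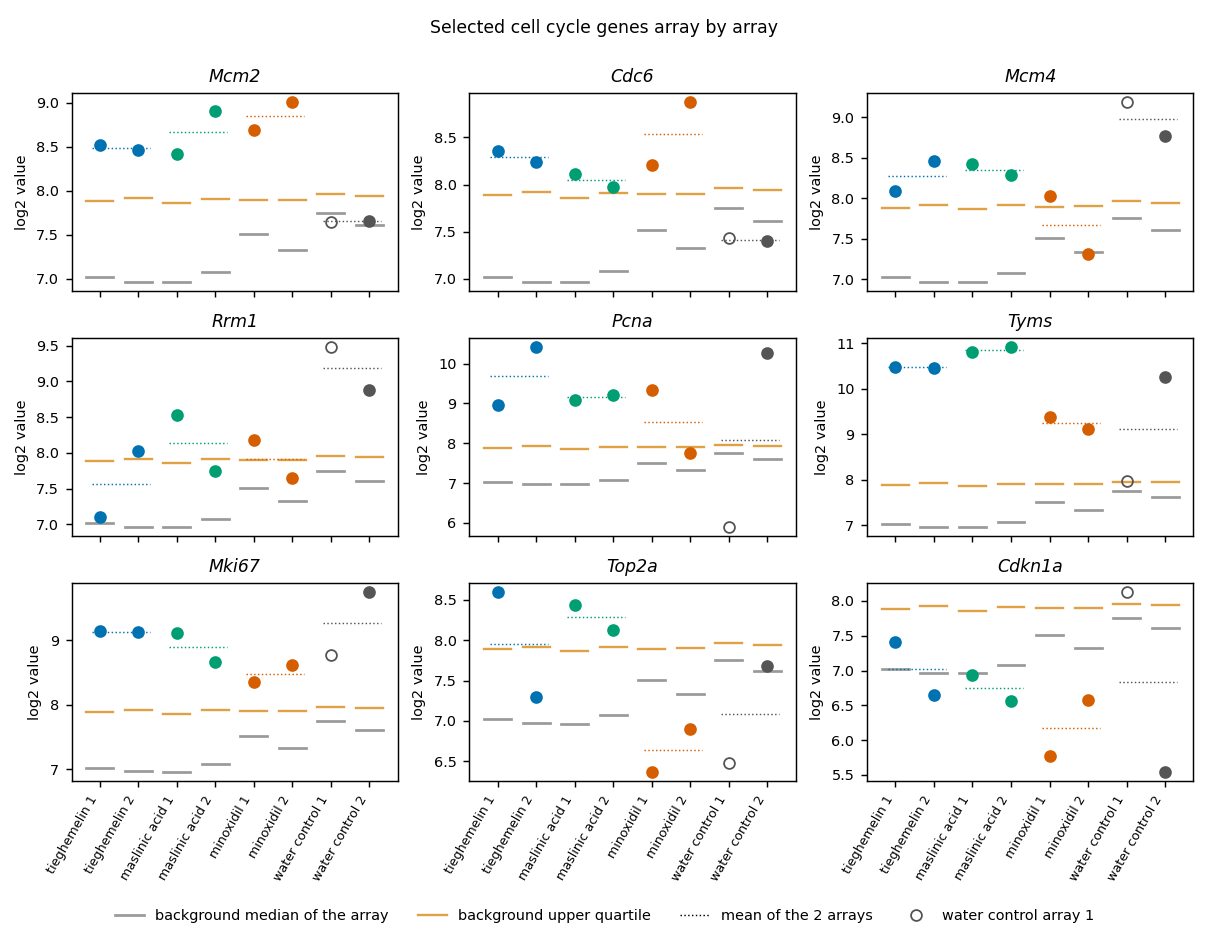
Log2 signal of Mcm2, Cdc6, Mcm4, Rrm1, Pcna, Tyms, Mki67, Top2a and Cdkn1a on each array, with dotted lines for the group means and ticks for each array's background median and upper quartile; control array 1 is the open circle. Mcm2 and Cdc6 are lowest in control skin, and Mcm4 and Rrm1 highest there. Tyms, Mki67 and Top2a are lower on both minoxidil arrays than on the 4 triterpenoid arrays, and the control pair of Pcna spans 4.38 log2.

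Among the mitosis genes, Top2a differed between both triterpenoids and minoxidil. Top2a encodes the topoisomerase that untangles sister chromosomes, and it read 8.60 and 7.30 with tieghemelin, 8.44 and 8.13 with maslinic acid, 6.37 and 6.90 with minoxidil and 6.48 and 7.68 in control skin. Both minoxidil arrays were below background and below all 4 triterpenoid arrays, and the control arrays fell on either side of tieghemelin array 2. Top2a was at least 1.82-fold higher with maslinic acid than with minoxidil (fitted difference 1.65, SE 0.57, unadjusted p = 0.0198) and at least 1.44-fold higher with tieghemelin (1.31, SE 0.57, unadjusted p = 0.0493), with limma's adjusted p = 1.000 for each. Its differences from control, of 0.87 with tieghemelin, 1.20 with maslinic acid and -0.44 with minoxidil, did not meet the study's thresholds.

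Mki67 is the marker of cycling cells most used in histology. Like Top2a, it read lower with minoxidil than with either triterpenoid. Unlike Top2a, its mean was not higher with a triterpenoid than in control skin. It read 9.14 and 9.13 with tieghemelin, 9.12 and 8.66 with maslinic acid, 8.35 and 8.61 with minoxidil and 8.77 and 9.75 in control skin. Control array 2 was the highest of the 8 and minoxidil array 1 the lowest. Both minoxidil arrays were below every triterpenoid array. Full separation from minoxidil, in either direction, was found for 43.8% of all probe sets with tieghemelin and 43.6% with maslinic acid. Minoxidil minus control was -0.78 (SE 0.43, unadjusted p = 0.106), and -1.27 without control array 1. For maslinic acid the difference was -0.37, and -0.86 without that array, and for tieghemelin -0.13 and -0.61. Mki67 had no higher mean in a treated group than in control skin.

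Bub1, Kif23, Cenpe and Cenpa had wide ranges of group means together with wide gaps between the arrays of at least 1 group. Bub1, a kinase of the spindle checkpoint, read 8.71 and 8.72 with tieghemelin, 7.59 and 9.00 with maslinic acid, 9.29 and 9.17 with minoxidil and 6.63 and 8.62 in control skin. Control array 1 was the lowest and below background. Minoxidil minus control was 1.60 (SE 0.69), and 0.61 without control array 1. Kif23, a motor of cytokinesis, read 6.94 and 7.47 with tieghemelin, 7.41 and 7.78 with maslinic acid, 7.47 and 7.45 with minoxidil and 9.66 and 7.51 in control skin. Control array 1 alone was high, and the differences from control of -1.38, -0.99 and -1.12 for the 3 treatments were -0.30, 0.09 and -0.05 without it. Cenpe, a kinetochore motor, read 7.35 and 7.99 with tieghemelin, 7.76 and 7.66 with maslinic acid, 8.67 and 7.56 with minoxidil and 6.19 and 8.25 in control skin, with overlap in all comparisons. Cenpa, the histone variant of centromeres, read 10.00 and 8.96 with tieghemelin, 9.11 and 10.25 with maslinic acid, 8.70 and 9.11 with minoxidil and 9.96 and 8.63 in control skin, again with overlap in all comparisons.

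The other 16 mitosis genes met the study's thresholds in no comparison with all 8 arrays. They include the mitotic cyclin genes Ccna2 and Ccnb2, the kinase genes Aurka, Aurkb and Plk1, and Cdc20 and Ube2c of the machinery that degrades cyclins. Plk1, which acts at several steps of mitosis, read 8.36 and 8.28 with tieghemelin, 8.76 and 8.44 with maslinic acid, 8.52 and 8.73 with minoxidil and 8.82 and 8.08 in control skin. Ccnb2 read 8.60 and 8.82 with tieghemelin, 9.09 and 8.85 with maslinic acid, 8.56 and 8.63 with minoxidil and 8.59 and 8.51 in control skin. Both genes were above background on all 8 arrays and their groups lay within 1 log2 of each other.

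Of the 9 regulators, none met the study's thresholds in a comparison with all 8 arrays except Cdkn1b. Cdkn1b, an inhibitor of cyclin-dependent kinases that accumulates in resting cells, read 4.97 and 4.67 with tieghemelin, 5.44 and 5.24 with maslinic acid, 5.30 and 5.98 with minoxidil and 5.84 and 5.97 in control skin. Every value was below background, so tieghemelin minus control, at -1.09 (SE 0.38, adjusted p = 0.414), has no fold. Cdkn1a, the inhibitor induced by DNA damage, read 7.41 and 6.65 with tieghemelin, 6.93 and 6.57 with maslinic acid, 5.77 and 6.58 with minoxidil and 8.13 and 5.55 in control skin. It was above background on tieghemelin array 1 and control array 1 alone. Its differences from control changed with control array 1: 0.19 with tieghemelin, -0.09 with maslinic acid and -0.66 with minoxidil with all 8 arrays, and 1.48, 1.20 and 0.63 without it. Cdkn1c, the third inhibitor of this family, read 7.78 and 8.12 with tieghemelin, 7.88 and 7.96 with maslinic acid, 7.64 and 8.52 with minoxidil and 8.15 and 7.29 in control skin, and its groups overlapped in all comparisons.

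The cyclins of S phase entry were among the brighter regulators. Ccne1 read 9.37 and 9.15 with tieghemelin, 9.80 and 8.99 with maslinic acid, 9.41 and 9.65 with minoxidil and 8.94 and 9.50 in control skin. Ccne2 read 8.39 and 8.31 with tieghemelin, 8.03 and 8.55 with maslinic acid, 8.03 and 9.22 with minoxidil and 8.83 and 8.77 in control skin. The kinase that they activate, Cdk2, read 7.75 and 7.88 with tieghemelin, 7.79 and 8.04 with maslinic acid, 8.31 and 8.07 with minoxidil and 8.26 and 7.65 in control skin. For these 3 genes the largest difference between group means was -0.51, for Ccne2 with maslinic acid against control. Cdk4, the partner of D-type cyclins, read 9.04 and 8.70 with tieghemelin, 8.58 and 8.85 with maslinic acid, 8.75 and 9.14 with minoxidil and 10.75 and 8.59 in control skin. Control array 1 was high, and the differences of -0.80, -0.95 and -0.73 from control were 0.28, 0.13 and 0.36 without it. Ccnd2, a D-type cyclin, read 6.63 and 6.59 with tieghemelin, 6.94 and 6.59 with maslinic acid, 7.61 and 6.92 with minoxidil and 7.48 and 6.93 in control skin, and was above background on minoxidil array 1 alone. E2f1, a transcription factor of S phase genes, read 5.38 and 5.43 with tieghemelin, 5.58 and 5.67 with maslinic acid, 5.57 and 5.73 with minoxidil and 5.26 and 5.49 in control skin, below background throughout.

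The comparisons ask whether skin treated for 20 days differed from water-treated skin, or between treatments, in these genes. The study took a gene at a fold change of at least 1.7 with an unadjusted p of at most 0.05. No member passed an adjusted p of 0.05 in any of the 6 comparisons, with all 8 arrays or without control array 1. Of all probe sets, 0 passed with all 8 arrays, and without control array 1 0.356% passed for tieghemelin and 0.0045% each for maslinic acid and minoxidil against control. Without control array 2, where control array 1 stood alone for its group, 11, 12 and 15 members passed for tieghemelin, maslinic acid and minoxidil against control, and so did 37.9%, 37.3% and 37.7% of all probe sets. The 3 comparisons with control share the control arrays, and those with minoxidil share its arrays, so their values are given side by side and their overlap is not read as a result.

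Tieghemelin against control placed replication genes on both sides. Mcm2, Mcm3 and Cdc6 were higher and Rrm1 and Cdkn1b lower, so that 5 of 44 members (11.4%) met the study's thresholds, against 11.7% of all probe sets. None passed an adjusted p (smallest 0.410 among the members), and an unadjusted p at or under 0.05 was found for 5. The members' median difference was 0.14, against 0.05 for all probe sets, with 0.47 for replication, 0.14 for mitosis and -0.14 for the regulators, and 0.16, 0.08 and -0.09 without control array 1. With brighter probe sets alone, the members' median was -0.13. For 19 members the arrays were fully separated between the groups, against 40.7% of all probe sets. Without control array 1, 5 members met the thresholds (13.7% of all probe sets), of which Cdc6, Rrm1 and Cdkn1b were shared with the fit of all 8 arrays, Cdkn1a was higher and Rrm2 lower. The count was 19 without control array 2 (47.5% of all probe sets), 2 without tieghemelin array 2 (4.5%), 3 without either maslinic acid array (7.89%) and 0 without tieghemelin array 1 (3.67%). The call of Mcm2 held in 1 of the 8 fits that left out an array, and that of Cdc6 in 4.

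Maslinic acid against control placed Mcm2 and Tyms higher and no member lower at the study's thresholds. Without a threshold, 23 members had a positive difference and 21 a negative one. Mcm2 and Tyms were 2 of 44 members (4.55%), against 10.8% of all probe sets at these thresholds. None passed an adjusted p (smallest 0.448), and an unadjusted p at or under 0.05 was found for 2. The median difference was 0.12 for the members and 0.50 for replication, 0.05 for mitosis and -0.09 for the regulators (0.28, 0.08 and 0.13 for the 3 phases without control array 1), and with brighter probe sets alone the members' median was -0.06. For 20 members the arrays were fully separated, against 38.7% of all probe sets. Without control array 1 the call of Tyms ended and 3 members met the thresholds (12.8% of all probe sets), with Mcm2 and Cdkn1a higher and Mki67 lower. The count was 16 without control array 2 (47.3% of all probe sets), 1 without maslinic acid array 1 (4.66%) and 0 without maslinic acid array 2 (3.48%).

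Minoxidil against control placed Mcm2, Cdc6 and Bub1 higher and Mcm4, Rrm1 and Cdt1 lower. These 6 of 44 members (13.6%) met the study's thresholds, against 11.3% of all probe sets. None passed an adjusted p (smallest 0.440), and an unadjusted p at or under 0.05 was found for 6. The median difference was 0.13 for the members, against 0.06 for all probe sets, with 0.17 for replication, 0.07 for mitosis and 0.06 for the regulators. Full separation of the arrays was seen for 15 members, against 36.2% of all probe sets. Without control array 1, 7 members met the thresholds (12.9% of all probe sets), of which Mcm2, Mcm4 and Cdc6 were shared with the fit of all 8 arrays, Cenpf was higher and Pcna, Tyms and Mki67 lower. Cenpf was below the background median on all 8 arrays. The medians without control array 1 were -0.46 for replication, 0.06 for mitosis and 0.34 for the regulators. The count was 16 without control array 2 (47.3% of all probe sets) and 0 without minoxidil array 2 (5.94%). The call of Bub1 held in 3 of the 8 fits that left out an array, and that of Cdt1 in 5.

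Set directly against minoxidil, tieghemelin differed in Top2a and maslinic acid in Top2a and Tyms, each higher with the triterpenoid. That was 1 of 44 members for tieghemelin (2.27%), against 3.3% of all probe sets, and 2 of 44 for maslinic acid (4.55%), against 3.6%. None passed an adjusted p, and an unadjusted p at or under 0.05 was found for 1 and 2 members. The members' medians were -0.13 and -0.05, against -0.03 for all probe sets in each comparison. Arrays were fully separated for 19 members (43.8% of all probe sets) in the tieghemelin comparison and for 14 members (43.6%) in the maslinic acid comparison. Without control array 1, 4 members met the thresholds in each comparison, against 10.4% and 11.1% of all probe sets. For tieghemelin these were Top2a, Tyms and Cdkn1a, higher, and Cdkn1b, lower, and for maslinic acid Top2a, Tyms and Cdt1, higher, and Bub1, lower. Leaving out control array 2 instead gave the same counts by construction. A control group of 1 array adds nothing to the estimate of spread, so this is not a separate check. The call of Top2a for tieghemelin ended without tieghemelin array 1, either maslinic acid array or either minoxidil array, and that of Tyms for maslinic acid without any 1 of the 6 treated arrays. The call of Top2a for maslinic acid ended without minoxidil array 1 or either maslinic acid array.

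Between the triterpenoids no member was called. Tieghemelin minus maslinic acid lay between -0.57 and 0.62 over the members, with a median of -0.05. No member met the study's thresholds (0 of 44), against 0.306% of all probe sets, none passed an adjusted p, and 0 were at or under an unadjusted p of 0.05. Arrays of the pair were fully separated for 12 members, against 30.6% of all probe sets. The 95% confidence intervals from limma had a median half-width of 0.98 log2, and over all members their bounds reached from -2.37 to 3.43. Without control array 1 the median half-width was 0.72 and the bounds reached from -1.46 to 1.75, with 0 members called, against 1.56% of all probe sets. Intervals of this width do not show that the compounds act alike.

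**Figure D4:**
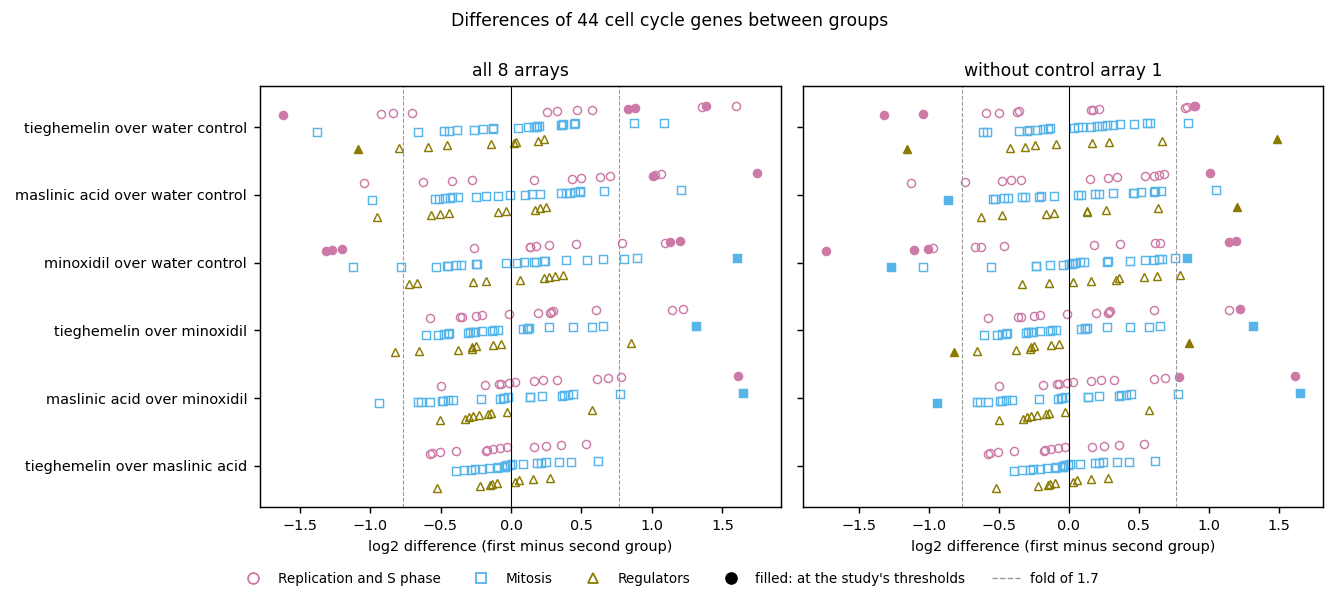
Log2 difference of each of the 44 members in the 6 comparisons, with all 8 arrays on the left and without control array 1 on the right; filled points met the study's thresholds and dashed lines mark a fold of 1.7. The members scatter on both sides of 0 in every comparison, and the narrowest scatter, from -0.57 to 0.62, is that of tieghemelin against maslinic acid.

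Other cell cycle genes were read from 3 further lists, with 33 of 35 replication genes, 49 of 50 mitosis genes and 32 of 32 regulators measured. Of these 114 genes, 7 were higher and 4 lower at the study's thresholds with tieghemelin against control, 4 and 6 with maslinic acid, and 6 and 9 with minoxidil. These were 9.65%, 8.77% and 13.2% of the genes, against 11.7%, 10.8% and 11.3% of all probe sets. Against minoxidil, 3 were higher and 4 lower with tieghemelin and 2 and 6 with maslinic acid, and 1 was higher with tieghemelin than with maslinic acid. The shares were 6.14%, 7.02% and 0.877%, against 3.3%, 3.6% and 0.306% of all probe sets. The median difference from control was 0.03, -0.02 and -0.01 for the 3 treatments. None passed an adjusted p with all 8 arrays. Without control array 1 the counts in both directions together were 15, 11 and 17 against control, 16 and 17 against minoxidil and 3 between the triterpenoids. Those shares were 13.2%, 9.65%, 14.9%, 14%, 14.9% and 2.63%, against 13.7%, 12.8%, 12.9%, 10.4%, 11.1% and 1.56% of all probe sets.

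Cdca2, a chromatin protein of late mitosis, read 7.39 and 7.78 with tieghemelin, 7.14 and 7.35 with maslinic acid, 6.09 and 5.37 with minoxidil and 7.89 and 7.22 in control skin, so that the minoxidil arrays were lowest and below background, and 1 of the 2 control arrays was above it. It was at least 1.12-fold higher with tieghemelin than with minoxidil (fitted difference 1.86, SE 0.42), and the fitted difference of minoxidil from control was -1.83, and -1.49 without control array 1. Anln, which encodes the cytokinesis protein anillin, was 2.86-fold lower with tieghemelin (-1.51), 2.62-fold with maslinic acid (-1.39) and 3.12-fold with minoxidil (-1.64), and its differences without control array 1 were -0.78, -0.66 and -0.91. For Ncaph, a condensin subunit gene, neither tieghemelin array and 1 of the 2 control arrays were above background, and the fitted difference was -1.76, and -1.28 without control array 1. Pole2, a subunit of DNA polymerase epsilon, read 7.78 and 7.47 with tieghemelin, 7.54 and 7.53 with maslinic acid, 8.29 and 7.72 with minoxidil and 6.95 and 6.29 in control skin, where it was below background on both arrays. It was at least 1.25-fold higher with minoxidil than in control skin (fitted difference 1.38, and 1.71 without control array 1).

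Among the further regulators, Rbl2 and Pkmyt1 differed between maslinic acid and minoxidil in opposite directions. Rbl2, a member of the retinoblastoma family that represses cell cycle genes in resting cells, read 8.96 and 9.07 with tieghemelin, 9.45 and 9.56 with maslinic acid, 7.14 and 8.67 with minoxidil and 9.25 and 9.39 in control skin. Minoxidil array 1 was the lowest of all and below background. Maslinic acid minus minoxidil was 1.60 (SE 0.50), and minoxidil minus control was -1.42, and -1.48 without control array 1. Pkmyt1, an inhibitory kinase of Cdk1, read 8.22 and 7.72 with maslinic acid and 9.41 and 8.89 with minoxidil, a difference of -1.18 (2.26-fold lower). Gadd45a, a growth arrest gene, read 9.48 and 9.99 with tieghemelin, 9.62 and 9.20 with maslinic acid, 7.70 and 8.53 with minoxidil and 6.37 and 8.88 in control skin. Its differences from control, of 2.11 with tieghemelin and 1.79 with maslinic acid, were 0.85 and 0.53 without control array 1.

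Several of the widest differences in these lists rested on a single control array. Pola1, the catalytic subunit of DNA polymerase alpha, read 9.54 on control array 1, 6.05 on control array 2 and 5.09 to 5.81 on the treated arrays. Ccng1, a cyclin induced by DNA damage, read 9.57 and 10.12 with tieghemelin, 12.24 and 10.40 with maslinic acid, 12.16 and 10.88 with minoxidil and 8.28 and 14.38 in control skin. Tieghemelin minus control was -1.49 (SE 1.66, adjusted p = 0.684 in limma) with all 8 arrays. Without control array 1 it was -4.54, a value that rests on control array 2 alone. E2f3 had 2 probe sets that disagreed in level, at 5.54 to 7.94 and at 8.32 to 9.13, and the brighter was used.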

How the data were processed

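The series measured skin RNA on 8 Clariom S Mouse arrays, grouped by their labels. The authors deposited log2 signals per probe set, normalised in Transcriptome Analysis Console 4.0.1 per the series' design text, and Affymetrix Expression Console and RMA are named in the submitters' processing notes. That the deposited values are log2 was read from their range, which ends at 19.93, and a genome build is not given in the sources used here. RMA removes most differences in total signal between arrays. Tests ran over 22206 probe sets with no filter, after removal of 6640 control probe sets. Symbols came from the platform annotation (19572 probe sets with 1 symbol, 2634 unnamed).

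All 8 arrays entered 1 linear model in limma 3.58.1 (R 4.3.3; lmFit, eBayes) with a term per group and 4 residual degrees of freedom, and p-values were adjusted by the Benjamini-Hochberg method over all probe sets. An exact permutation test of 2 arrays against 2 cannot give a p below 0.33, so none was used. The number of arrays limits the precision. Members described in full were, per phase, up to 6 with the widest range of group means among those above background on an array, plus all regulators, plus members at the study's thresholds between treatments or, against control, both with and without control array 1. From each further list up to 4 genes with the largest differences were taken. Members, lists and rules were chosen with earlier results of these data known. Alternatives were scaling, a filter on dim probe sets, the variance model, the samples in the fit and the replicate number as a block.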

Additional observations from a re-analysis of the deposited data

How the results depend on the processing

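Counts of members at the study's thresholds changed most with the arrays left out. Leaving out 1 array at a time, they ranged from 0 to 19 for tieghemelin against control, 0 to 16 for maslinic acid and 0 to 16 for minoxidil, from 0 to 4 for each triterpenoid against minoxidil, and stayed at 0 between the triterpenoids. Members at an adjusted p under 0.05 ranged from 0 to 11, 0 to 12 and 0 to 15 against control, with the highest counts all without control array 2, where control array 1 stood alone for its group and 37.9%, 37.3% and 37.7% of all probe sets passed. They were 0 in the other comparisons. A group left with 1 array was assumed to vary like the others. Medians of the members ranged from -0.044 to 0.14, -0.071 to 0.13 and -0.029 to 0.13 against control, from -0.18 to 0.049 and -0.053 to 0.017 for tieghemelin and maslinic acid against minoxidil, and from -0.13 to -0.020 between the triterpenoids.

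With array weights the counts were 0 for tieghemelin, 1 for maslinic acid and 0 for minoxidil against control, and 3 for tieghemelin against minoxidil, where 6.15%, 5.37%, 5.42% and 10.1% of all probe sets met the thresholds. With the 2 groups alone in the fit they were 2, 0 and 0 against control (4.34%, 3.7% and 3.08% of all probe sets) and 3 for tieghemelin against minoxidil (10.4%). Without moderation they were 1 for maslinic acid against control (6.63%) and 0 against minoxidil (3.07%). With brighter probe sets alone, 18 members stayed, and the counts were 2 for tieghemelin against control (12.1% of these probe sets), 0 for tieghemelin (3.2%) and 1 for maslinic acid (3.39%) against minoxidil, and the medians were -0.13 and -0.064 for tieghemelin and maslinic acid against control and -0.11 between them. Quantile normalisation gave 0 for tieghemelin against minoxidil (3.04%) and a median of 0.054 for maslinic acid against control, where a common median gave 0.069. The cause of these shifts was not tested.

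With the replicate number as a block, the members at the study's thresholds were 3 for tieghemelin, 2 for maslinic acid and 6 for minoxidil against control, 0 and 2 for tieghemelin and maslinic acid against minoxidil and 0 between them, against 11.6%, 10.4%, 11%, 2.86%, 2.9% and 0.23% of all probe sets. The labels do not say that a number pairs arrays, and deviations of same-numbered arrays correlated at -0.17 to 0.09 between groups, lowest between tieghemelin and maslinic acid. A block with those numbers crossed, chosen after seeing the data, called 0 members and 62 probe sets at the study's thresholds and 0 at an adjusted p.

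Of 29 differences followed under every alternative, 5 changed sign when 1 array was left out. Differences of other members, such as Cdk4, also changed sign without control array 1. Pcna with minoxidil ranged from -1.73 (without control array 1) to 2.65 (without control array 2), and was -0.34 without minoxidil array 1. Tyms with minoxidil ranged from -1.01 to 1.27 for the same control arrays, and was -0.0071 without minoxidil array 1. Cdkn1a with tieghemelin ranged from -1.10 (without control array 2) to 1.48 (without control array 1), and was -0.19 without tieghemelin array 1. Cdkn1a with maslinic acid ranged from -1.38 to 1.20 for the same control arrays, and was 0.09 without maslinic acid array 2. Mki67 with maslinic acid ranged from -0.86 (without control array 1) to 0.11 (without control array 2). Of the remaining values of single genes under an alternative, 328 kept direction and side of the thresholds, 89 no longer met them and 29 newly met them. Signal near background limits what could be measured for the dim members.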
